A study of Danio rerio with 11 samples.

Results

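The genes described here are the core machinery of apoptosis: the pro-death and anti-death members of the BCL2 family, the caspases, the mitochondrial factors that activate them, the nuclease that cuts the DNA of dying cells, the inhibitors of apoptosis and the death receptors. They were chosen by name, as a list of 40 zebrafish gene names, by their role in apoptosis. All 40 names were found among the 32105 zebrafish gene IDs of the counts. They matched 50 IDs, since HTRA2 stands for 11 IDs that share that name. After genes with too few reads were left out, 37 of the 50 IDs were tested. A pair of IDs carried the name BOK and 1 ID the name CASP6, and they are given with their Ensembl IDs because the name does not say which paralogue each one is. The IDs given as baxa and bcl2b carried the names BAX and BCL2, and were assigned so because baxb and bcl2a had IDs under their own names.

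Livers of larvae at 120 hpf (5 dpf) were compared between hUHRF1 larvae, which carry Tg(fabp10a:hUHRF1-EGFP)high, and their WT siblings, which do not carry it. The transgene makes human UHRF1 fused to EGFP in hepatocytes, from the promoter of fabp10a, a fatty acid binding protein of the liver, and hUHRF1 larvae were picked by their fluorescence. The 5 hUHRF1 pools came from clutches 4, 6, 7, 8 and 9 and held 30 livers each, except 27 in clutch 6. The 6 WT pools came from clutches 4 to 9 and held 20 livers each, so that clutch 5 gave a WT pool only. Each library is 1 pool from 1 clutch. Total RNA was depleted of ribosomal RNA, and the values are read counts per gene.

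In the intrinsic pathway of apoptosis, BH3-only proteins of the BCL2 family sense damage and either block the anti-death members or switch on BAX and BAK, which open the outer membrane of mitochondria. Cytochrome c then leaves the mitochondria and binds APAF1, the resulting apoptosome activates caspase-9, and caspase-9 cuts the executioner caspases. In the extrinsic pathway, death receptors at the cell surface recruit the adaptor FADD, which activates caspase-8. In hepatocytes, caspase-8 reaches the mitochondria through the BH3-only protein BID, and XIAP, an inhibitor that binds active caspases, has to be displaced for cells to die. Most of these steps are controlled on proteins, by cleavage and binding, and the counts measure only the RNA.

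The hUHRF1 libraries held 9064943 to 19370497 counts (median 13655392) and the WT libraries 15285359 to 23322479. TMM scaling factors, which correct for RNA composition, were 1.121 to 1.705 in hUHRF1 libraries and 0.6725 to 0.9781 in WT libraries, with no overlap. The zebrafish uhrf1 gene had an L2FC (log2 fold change, hUHRF1 over WT) of 0.95 (adjusted p = 0.022), which was 0.73 (adjusted p = 0.075) without the hUHRF1 pool of clutch 6, and no ID of the counts belongs to the human transgene. Hepatocyte markers were high in sum in both conditions but lower in hUHRF1 livers, and all 10 were called lower. Their summed level was 35900 to 83400 CPM (counts of a gene per 1000000 counts of the TMM-scaled library) in hUHRF1 pools and 117000 to 196000 CPM in WT pools. Not every marker was abundant: ahsg1 was at 1.88 to 6.47 CPM in hUHRF1 pools and 22.8 to 145 CPM in WT pools. For cp the ranges were 21.4 to 78.0 CPM and 184 to 1120 CPM. Of the 10 markers, fabp10a itself, whose promoter drives the transgene, had an L2FC of -1.36 (adjusted p = 0.0067). Macrophage markers summed to 29.9 to 45.2 CPM in hUHRF1 pools and 11.1 to 28.8 CPM in WT pools, with 5 of 7 tested IDs called higher. Several of these IDs share the name MFAP4. The most abundant ID of the list, MFAP4 ENSDARG00000090557, was not called, with an L2FC of 0.19 (adjusted p = 0.69, edgeR). Exocrine pancreas markers summed to 710 to 5960 CPM in hUHRF1 pools and 351 to 1450 CPM in WT pools, with 5 of 5 called higher. Of the markers of other cells, 2 of 5 for endothelium and 2 of 6 for biliary cells were called higher, and 2 of 5 for intestine and 1 of 5 for erythrocytes were called lower. None of 4 for neutrophils and none of 5 for muscle was called. The sums for endothelium overlapped, at 164 to 198 CPM in hUHRF1 pools and 154 to 229 CPM in WT pools. Those for biliary cells also did, at 1440 to 2310 CPM and 1240 to 2320 CPM. The intestine markers did not move together. Called lower were fabp2 (L2FC -0.77) and apoa4b.1 (-1.31). Above 0 but not called were vil1 (2.27, adjusted p = 0.15), SLC15A1 ENSDARG00000044528 (2.39, adjusted p = 0.083) and SLC15A1 ENSDARG00000100315 (0.33, adjusted p = 0.73). No matched marker of any cell type was at 0 in all pools of a condition, but the intestine marker fabp6 was at 0 to 0.0568 CPM in hUHRF1 pools. Of the 58 marker names listed, 10 matched no ID of the counts. The part of cell type makeup in the values below was not tested, and in pooled livers fewer cells of a type and less RNA per cell cannot be told apart.

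Of the 37 tested cell death genes, 10 (27.0%) were called at an adjusted p under 0.05 with edgeR's quasi-likelihood test, beside 28.8% of all 15838 genes tested. Higher in hUHRF1 livers were 5 of 37 (13.5%), beside 14.3% of all genes, and lower were 5 of 37 (13.5%), beside 14.5% of all genes. The shares of calls were therefore close to those over the whole transcriptome. By role, those called higher were the BH3-only genes bbc3 and bik, the pore former baxb, casp8 and 1 HTRA2 gene. Those called lower were the anti-death gene bcl2l1, the inhibitors xiap and birc2, the BH3-only gene bcl2l11 and the TNF receptor tnfrsf1b. The median L2FC over the 37 genes was -0.14, and over all genes it was 0.05. Values of every hUHRF1 pool lay above those of every WT pool for 3 of the 37 genes (8.05% of all genes) and below them for 5 (9.02% of all genes), so that conditions did not overlap for 8 of 37 (21.6%), beside 17.1% of all genes.

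**Figure D1:**
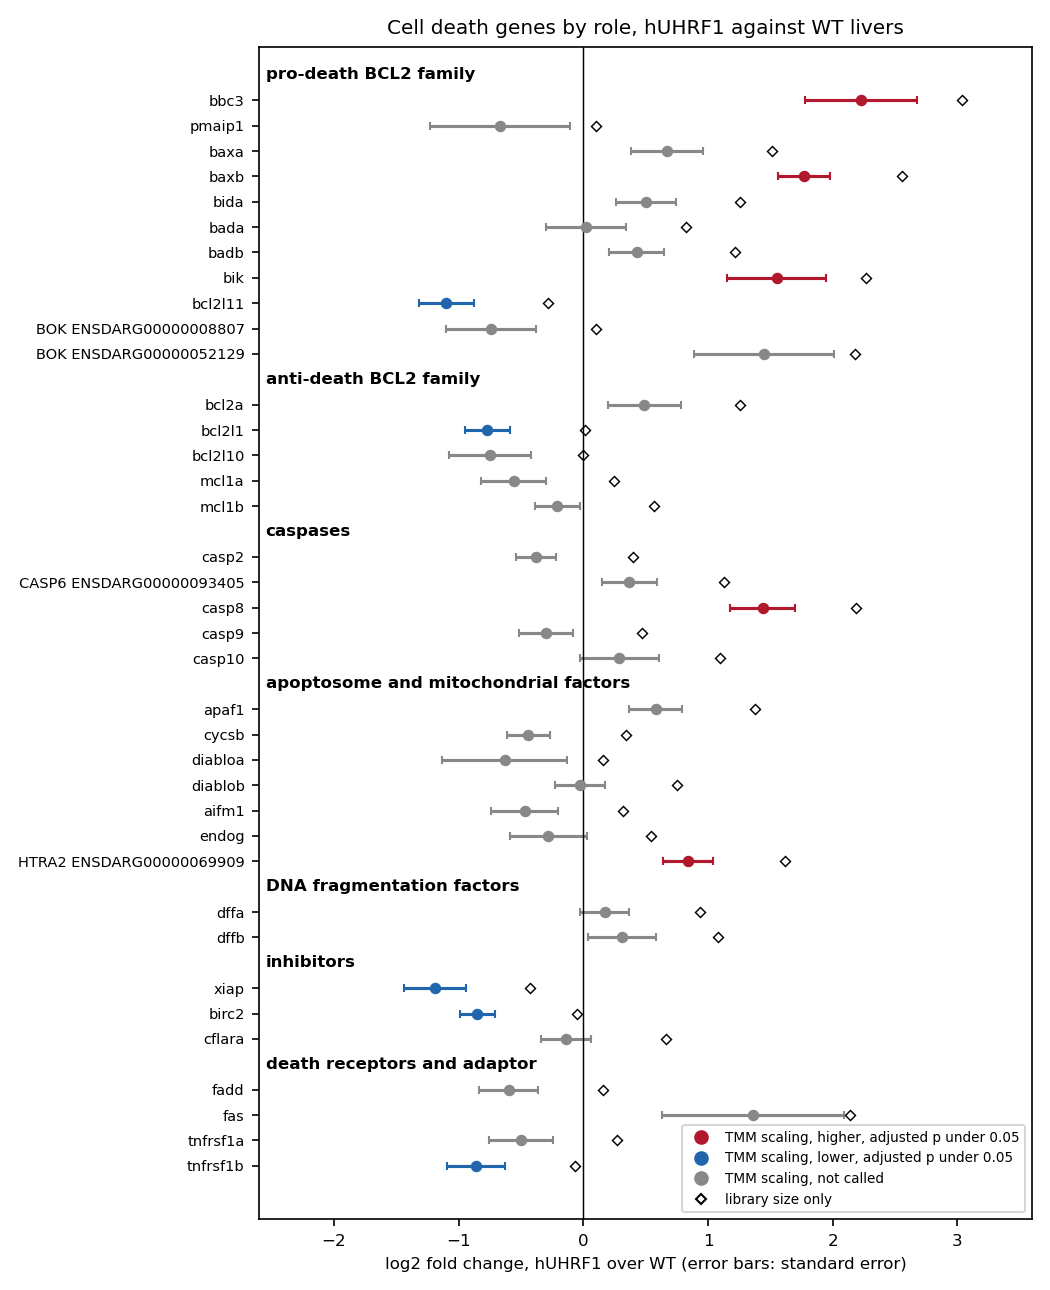
L2FC of each of the 37 tested cell death genes, hUHRF1 over WT, grouped by role, on a log2 axis. Circles with error bars (standard error) are the fits with TMM scaling, red where called higher, blue where called lower and grey where not called, and open diamonds are the fits scaled by library size only. Calls to the right are in the pro-death BCL2 family, casp8 and 1 HTRA2 gene, and calls to the left include 2 of the 3 inhibitors; all diamonds lie to the right of their circles.

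The size of these changes depended on how libraries were scaled. With library size only, the median L2FC of all genes moved to 0.83 and that of the 37 cell death genes to 0.66. All 5 genes called higher were then called higher again, within a total of 20 of 37 (51.9% of all genes were called higher). None of the 5 genes called lower was called lower, none of the 37 was lower at an unadjusted p under 0.05 in that edgeR fit either, and 3.81% of all genes were called lower. With DESeq2, which scales by its own size factors, 7 cell death genes were called lower (13.4% of all genes), among them all 5. The words higher and lower below therefore refer to the TMM scale. Of the 20 genes with an L2FC under 0 on that scale, 15 were above 0 with library size only, casp2, casp9, fadd, mcl1a and cycsb among them. Relative to the median of all genes in that fit, a subtraction that by construction brings values close to the TMM scale, xiap was at -1.26, bcl2l11 at -1.11, tnfrsf1b at -0.90, birc2 at -0.89 and bcl2l1 at -0.83 with library size only, on the log2 scale.

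The pro-death BCL2 family held the largest L2FC and was not uniform. Of its 11 tested genes, 3 were called higher, 1 was called lower and 7 were not called, and its median L2FC was 0.50. The gene bbc3 encodes Puma, a BH3-only protein that binds all main anti-death members. In the hUHRF1 pools of clutches 4, 6, 7, 8 and 9, bbc3 was at 57.9, 76.3, 51.2, 70.4 and 23.6 CPM, against 5.07 to 25.5 CPM (median 7.68) in the WT pools. The hUHRF1 pool of clutch 9 was the lowest of its condition and lay under the WT pool of clutch 4, which was the highest of its condition, and the other 4 hUHRF1 pools lay above all WT pools. The mean was 55.9 ± 20.6 CPM (SD, n = 5) in hUHRF1 livers and 12 ± 8.56 CPM (SD, n = 6) in WT livers. Its L2FC of 2.23 (SE 0.45, adjusted p = 0.0033) was the largest of the 37 genes, and with the smaller numbers of pools in clutches 4 to 6 and in clutches 7 to 9 alone it was 2.33 (adjusted p = 0.064) and 2.16 (adjusted p = 0.060).

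Of the zebrafish genes for Bax, which forms the pore in the outer mitochondrial membrane, baxb was called higher and baxa was not called. The hUHRF1 pools had 13.7, 14.4, 8.06, 11.8 and 9.86 CPM of baxb, against 2.43 to 4.13 CPM (median 3.38) in the WT pools. The lowest hUHRF1 pool thus lay well above the highest WT pool, with an L2FC of 1.77 (SE 0.21, adjusted p = 5e-05), and baxb was called in clutches 4 to 6 alone (adjusted p = 0.0085) and in clutches 7 to 9 alone (adjusted p = 0.0076). For baxa the hUHRF1 pools had 19.5, 23.5, 8.69, 11 and 8.6 CPM, against 6.72 to 11.8 CPM (median 8.86) in the WT pools. The hUHRF1 pools of clutches 4 and 6 stood above all WT pools and those of clutches 7, 8 and 9 fell within their range. The L2FC of baxa was 0.67 (SE 0.29, adjusted p = 0.093), and 0.68 (adjusted p = 0.012) when each hUHRF1 pool was set against the WT pool of its clutch.

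The other BH3-only genes went in different directions. The gene bik, whose human counterpart sits mainly at the endoplasmic reticulum, was at 2.41, 2.00, 3.58, 6.08 and 4.47 CPM in the hUHRF1 pools, against 0.657 to 2.13 CPM (median 1.12) in the WT pools. Only the hUHRF1 pool of clutch 6 fell within the WT range, and the L2FC was 1.55 (SE 0.40, adjusted p = 0.0094), with 0.81 (adjusted p = 0.39) in clutches 4 to 6 alone and 1.86 (adjusted p = 0.024) in clutches 7 to 9 alone. The gene bcl2l11 encodes Bim, an activator of Bax that is best known from the death of blood cells and of cells deprived of growth factors. It was at 3.72, 3.77, 4.09, 3.92 and 4.30 CPM in the hUHRF1 pools, against 5.40 to 12.9 CPM (median 8.33) in the WT pools. The hUHRF1 pools lay close together, at 3.96 ± 0.238 CPM (SD, n = 5), and under every WT pool, and the L2FC was -1.10 (SE 0.22, adjusted p = 0.0023), with -1.01 (adjusted p = 0.085) in clutches 4 to 6 alone. The pro-death family thus held both the largest L2FC of the 37 genes, in bbc3, and 1 of the 5 genes called lower.

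The remaining pro-death genes were not called. The gene bida encodes Bid, the substrate that links caspase-8 to mitochondria, and it had an L2FC of 0.50 (SE 0.24, adjusted p = 0.14), or 0.57 (adjusted p = 0.023) with clutch as a block. The genes for Bad, a BH3-only protein controlled by phosphorylation, had L2FC values of 0.02 for bada (adjusted p = 0.97) and 0.43 for badb (adjusted p = 0.16). The gene badb overlaps zgc:101765, which had an L2FC of 2.12, so its reads may be shared. Noxa, the product of pmaip1, neutralizes Mcl1, and pmaip1 had an L2FC of -0.67 with an SE of 0.56 (adjusted p = 0.40). Its values were scattered, at 1.05 to 5.00 CPM in hUHRF1 pools and 1.23 to 9.40 CPM in WT pools. The BOK genes, which encode a further pore former, had L2FC values of -0.74 for ENSDARG00000008807 (adjusted p = 0.14) and 1.45 for ENSDARG00000052129 (adjusted p = 0.067). Too few reads for a test were found for bmf1, with 47 counts over the hUHRF1 pools and 36 over the WT pools, and for bmf2, with 40 and 27.

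**Figure D2:**
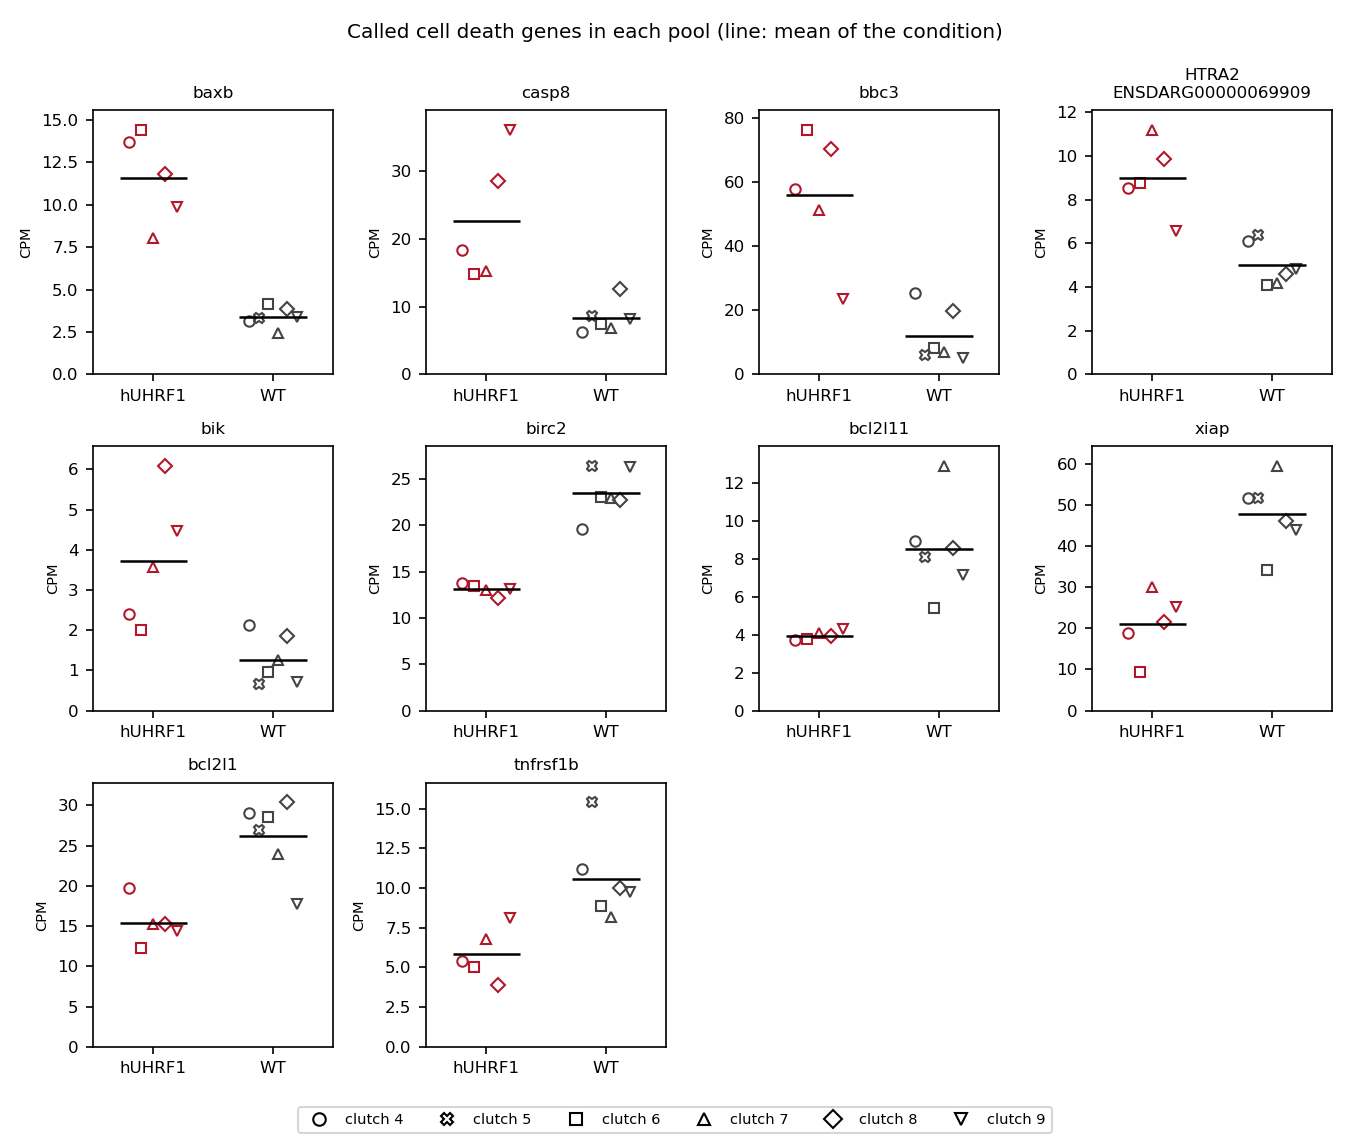
CPM of the 10 called cell death genes in each pool, with the hUHRF1 pools in red at the left of each panel and the WT pools in grey at the right; symbols mark clutches, lines are means and each axis starts at 0. The first 5 panels are the genes called higher and the last 5 those called lower; values of the conditions overlap for bbc3, bik and bcl2l1.

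The anti-death BCL2 family, which holds Bax and the BH3-only proteins in check, had a median L2FC of -0.56 over its 5 tested genes, of which 1 was called lower and 4 were not called. That median was -0.56 in clutches 4 to 6 alone and -0.16 in clutches 7 to 9 alone. With library size only it was 0.25, beside 0.83 over all genes. The called gene was bcl2l1, which encodes Bcl-xL, a main survival factor of mouse hepatocytes. It was at 19.7, 12.3, 15.3, 15.3 and 14.4 CPM in the hUHRF1 pools, against 17.8 to 30.4 CPM (median 27.8) in the WT pools. The WT pool of clutch 9 lay under the hUHRF1 pool of clutch 4, but in each of the 5 clutches with both conditions the hUHRF1 pool was the lower one. The L2FC was -0.77 (SE 0.18, adjusted p = 0.0051), with -0.84 (adjusted p = 0.074) in clutches 4 to 6 alone and -0.70 (adjusted p = 0.071) in clutches 7 to 9 alone, and with library size only it was 0.01 (adjusted p = 0.99). The anti-death gene with the highest CPM, a value not corrected for gene length, was mcl1a, a zebrafish gene for the short-lived protein Mcl1, at 82.2, 49.9, 91.9, 70.4 and 55.4 CPM in the hUHRF1 pools, against 61.9 to 149 CPM (median 99.7) in the WT pools. The conditions overlapped widely, and the L2FC was -0.56 (SE 0.26, adjusted p = 0.12), or -0.42 (adjusted p = 0.044) with clutch as a block. Its paralogue mcl1b was at -0.21 (adjusted p = 0.41), and bcl2l10, whose product Nrz acts in zebrafish embryos, was at -0.75 (SE 0.33, adjusted p = 0.11). The L2FC of bcl2a, a gene for Bcl2 itself, was 0.49 (SE 0.29, adjusted p = 0.23), and bcl2b was not tested, with 8 counts over the hUHRF1 pools and 20 over the WT pools.

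Among the 5 caspase genes, 1 was called higher and 4 were not called, with a median L2FC of 0.29, which was -0.11 in clutches 4 to 6 alone and 0.04 in clutches 7 to 9 alone. The initiator caspases belong to different pathways. Caspase-8 is activated at death receptors, and casp8 was at 18.4, 14.8, 15.3, 28.6 and 36.1 CPM in the hUHRF1 pools, against 6.25 to 12.6 CPM (median 7.84) in the WT pools. The conditions did not overlap, with the hUHRF1 pools of clutches 8 and 9 highest and the WT pool of clutch 8 apart from the other WT pools, and the L2FC was 1.44 (SE 0.26, adjusted p = 0.00099). The related casp10 had an L2FC of 0.29 (adjusted p = 0.51). Caspase-9 is activated on the apoptosome, and casp9 had an L2FC of -0.30 (SE 0.22, adjusted p = 0.33), or 0.47 with library size only. The stress-activated casp2 was at -0.38 (SE 0.16, adjusted p = 0.094), with every hUHRF1 pool under every WT pool. The executioner caspase gene CASP6 ENSDARG00000093405 was at 11.2, 12.9, 15.4, 24.2 and 22.4 CPM in the hUHRF1 pools, against 11.4 to 18.4 CPM (median 11.9) in the WT pools. Only the hUHRF1 pools of clutches 8 and 9 stood above all WT pools, and the L2FC was 0.37 (SE 0.22, adjusted p = 0.24), with -0.11 (adjusted p = 0.79) in clutches 4 to 6 alone.

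Of the 7 tested genes of the apoptosome and the mitochondrial factors, 1 was called higher and 6 were not called, with a median L2FC of -0.28. The gene apaf1 encodes the scaffold of the apoptosome and came close to the threshold. It was at 6.56 to 10.3 CPM in hUHRF1 pools and 4.38 to 8.22 CPM in WT pools, with an L2FC of 0.58 (SE 0.21, adjusted p = 0.054), and 0.72 (adjusted p = 0.010) with clutch as a block. In RefSeq it overlaps dnajb9b, which may be either of 2 IDs, so reads may be shared. Of these IDs, ENSDARG00000016886 had an L2FC of 1.15 (adjusted p = 0.017, edgeR) and ENSDARG00000052072 one of 0.58 (adjusted p = 0.36, edgeR). HtrA2 is a mitochondrial protease that binds and cuts XIAP once it is released. The tested gene, HTRA2 ENSDARG00000069909, was at 8.54, 8.78, 11.2, 9.85 and 6.57 CPM in the hUHRF1 pools, against 4.08 to 6.37 CPM (median 4.73) in the WT pools. The hUHRF1 pool of clutch 9 lay just above the highest WT pool, and the L2FC was 0.84 (SE 0.20, adjusted p = 0.0069), with 0.63 (adjusted p = 0.20) in clutches 4 to 6 alone. The other 10 IDs of that name had at most 11 counts over a condition, and whether reads are shared among IDs of this name was not tested.

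The highest CPM among these genes, again without correction for length, was that of diabloa, for Smac, which displaces XIAP from caspases. It was at 737, 358, 982, 1640 and 721 CPM in the hUHRF1 pools, against 614 to 3720 CPM (median 996) in the WT pools. The conditions overlapped, the WT pool of clutch 7 was far above all others, and the L2FC was -0.63 with an SE of 0.50 (adjusted p = 0.37). Without that WT pool it was nearest to 0 among the fits that left out 1 library, at -0.04 (adjusted p = 0.95). Its paralogue diablob had an L2FC of -0.03 (adjusted p = 0.92). Cytochrome c is represented by cycsb, at -0.44 (SE 0.17, adjusted p = 0.072), a gene that overlaps nfe2l2b, which had an L2FC of -1.81. The genes for AIF and endonuclease G, which move to the nucleus in cell death without caspases, were at -0.47 for aifm1 (adjusted p = 0.20) and -0.28 for endog (adjusted p = 0.53). None of these released factors was called, whereas HTRA2 ENSDARG00000069909 was.

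The nuclease that cuts DNA between nucleosomes is encoded by dffb, and its inhibitor and chaperone, which executioner caspases destroy, by dffa. Of these, dffa was at 12.3, 12.8, 20.2, 20.5 and 22.1 CPM in the hUHRF1 pools, against 12.8 to 20.0 CPM (median 15.2) in the WT pools. The values of the conditions overlapped almost fully, with an L2FC of 0.17 (SE 0.20, adjusted p = 0.56) for dffa and of 0.31 (SE 0.27, adjusted p = 0.42) for dffb.

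The inhibitors had the lowest median of all roles, at an L2FC of -0.85 over 3 genes, of which 2 were called lower. XIAP binds and blocks caspases directly, and xiap was at 18.9, 9.35, 30.1, 21.5 and 25.2 CPM in the hUHRF1 pools, against 34.1 to 59.4 CPM (median 48.8) in the WT pools. The hUHRF1 pool of clutch 6 was the lowest and that of clutch 7 the closest to the WT pools, all of which were higher. The L2FC was -1.19 (SE 0.25, adjusted p = 0.0031), and the overlapping gene nxt2 was at -0.49 (adjusted p = 0.21). The gene birc2 encodes a ubiquitin ligase at TNF receptors that keeps cells from dying in response to TNF. It was at 13.8, 13.4, 13, 12.2 and 13.1 CPM in the hUHRF1 pools, against 19.6 to 26.4 CPM (median 23.1) in the WT pools. The hUHRF1 pools lay close together, all under the lowest WT pool, with an L2FC of -0.85 (SE 0.14, adjusted p = 0.00049), and -0.79 (adjusted p = 0.064) in clutches 4 to 6 alone. With library size only, xiap was at -0.43 (adjusted p = 0.093) and birc2 at -0.05 (adjusted p = 0.83). The third inhibitor, cflara, encodes the decoy of caspase-8 called FLIP and had an L2FC of -0.14 (SE 0.20, adjusted p = 0.64), so that 1 of the 3 was not called.

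Of the 4 tested genes for receptors at the cell surface and their adaptor, 1 was called lower and 3 were not called, with a median L2FC of -0.55. The called gene, tnfrsf1b, encodes the TNF receptor without a death domain. It was at 5.40, 5.01, 6.76, 3.92 and 8.09 CPM in the hUHRF1 pools, against 8.18 to 15.4 CPM (median 9.88) in the WT pools. The hUHRF1 pool of clutch 9 nearly reached the lowest WT pool, and the L2FC was -0.86 (SE 0.23, adjusted p = 0.012), with -0.59 (adjusted p = 0.22) in clutches 7 to 9 alone. In RefSeq tnfrsf1b overlaps LOC141376672, which had no ID in the counts. The receptor with a death domain is encoded by tnfrsf1a, which was at 15.6, 15.9, 42.8, 15.4 and 22.9 CPM in the hUHRF1 pools, against 26.2 to 38.9 CPM (median 31.0) in the WT pools. The hUHRF1 pools of clutches 4, 6, 8 and 9 lay under all WT pools and that of clutch 7 above them. The L2FC was -0.50 (SE 0.26, adjusted p = 0.17), and -0.88 (adjusted p = 0.0048) without the hUHRF1 pool of clutch 7. The receptor gene fas was near the limit of detection, at 0.240 to 4.30 CPM in hUHRF1 pools and 0 to 1.26 CPM in WT pools, with an L2FC of 1.36 and an SE of 0.73 (adjusted p = 0.18). The adaptor gene fadd, whose product joins receptors with a death domain to caspase-8, was at -0.60 (SE 0.24, adjusted p = 0.074), while casp8 itself was called higher.

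Since sibling pools share a clutch, the differences were also taken within clutches. In the 5 clutches with both conditions, 10 of the 37 genes (27.0%) were higher in every hUHRF1 pool than in its WT sibling pool, beside 20.8% of all genes. Another 7 of 37 (18.9%) were lower in all 5 clutches, beside 20.9% of all genes. With clutch as a block in the edgeR fit, 15 of the 37 genes were called (40.5%), beside 35.3% of all genes, of which 8 were higher (17.1% of all genes) and 7 lower (18.1% of all genes). All 10 called genes were called again with clutch as a block. The 5 called with the block but not in the main fit, which has no clutch term, were baxa, bida and apaf1, which were higher, and mcl1a and tnfrsf1a, which were lower. For tnfrsf1a the difference had the opposite sign in clutch 7, and for the other 14 genes every clutch agreed in sign. In clutches 4 to 6 alone, 2 of the 5 genes called higher and 2 of the 5 called lower were called again. With baxa, 3 cell death genes were called higher there, beside 4.82% of all genes. With bcl2l10 and tnfrsf1a, 4 were called lower. Of the 17102 genes tested there, 1839 were called in either direction, 824 of them higher and the rest lower. In clutches 7 to 9 alone, 4 of the 5 called higher and 3 of the 5 called lower were called again. There 1366 of 15467 tested genes (8.83%) were called lower. In either direction 2503 genes were called, the rest of them higher.

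**Figure D3:**
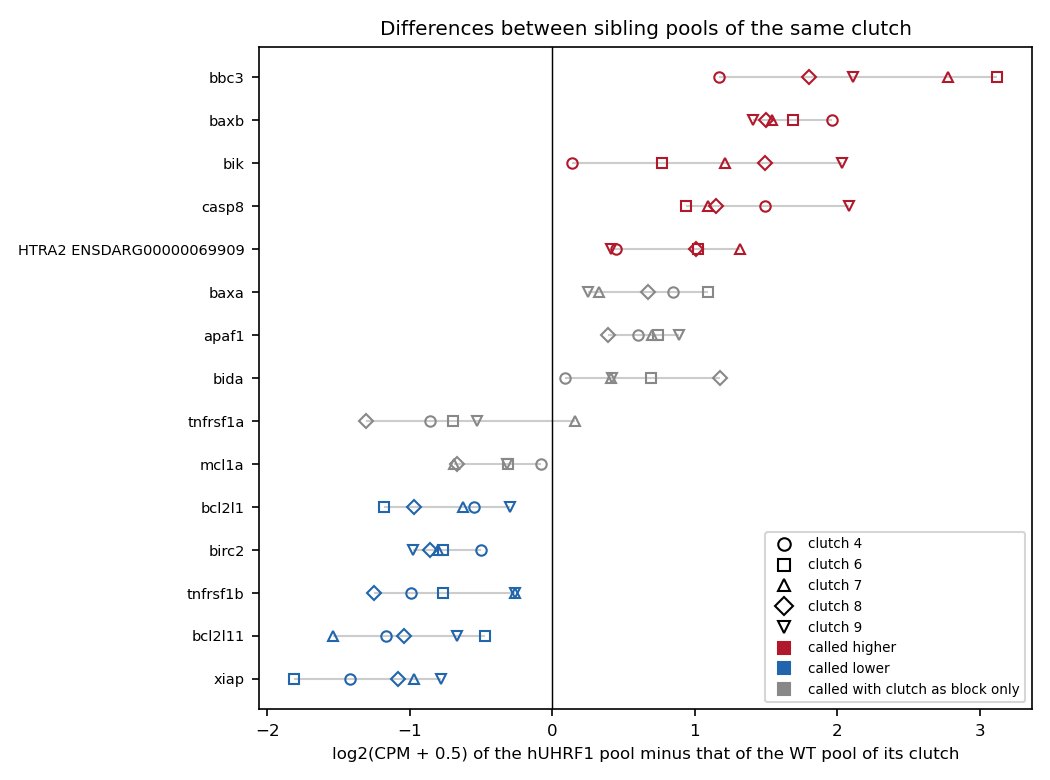
Difference between the hUHRF1 pool and the WT pool of the same clutch, on the scale of log2(CPM + 0.5), for the 15 cell death genes called with clutch as a block, with 1 symbol per clutch. Red and blue genes are also called in the main fit without the block, and grey ones are not. Clutch 7 of tnfrsf1a is the only symbol on the other side of 0 from the rest of its gene.

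Ratios of counts within a library do not depend on how libraries are scaled. The ratio of baxa to bcl2l1, a pore former against the survival factor that restrains it, was 0.992, 1.91, 0.569, 0.717 and 0.596 in the hUHRF1 pools of clutches 4, 6, 7, 8 and 9, against 0.221 to 0.436 (median 0.370) in the WT pools. The lowest hUHRF1 pool was above the highest WT pool, although values of each of these genes alone overlapped between conditions. A further 2 ratios were chosen after the values of their genes were seen, and each sets a gene called higher over a gene called lower. Values of baxb and of bcl2l11 alone already did not overlap between conditions, so non-overlap of these ratios adds no separate result. The share of all pairs of genes whose ratios do not overlap was not computed. The ratio of baxb to bcl2l1 was 0.528 to 1.17 in hUHRF1 pools and 0.102 to 0.191 in WT pools. The ratio of the BH3-only genes bbc3 and bcl2l11 was 5.49 to 20.3 in hUHRF1 pools and 0.545 to 2.84 in WT pools. The hUHRF1 pool of clutch 6 had the highest value in all 3 ratios. No test was made of these ratios, and their absolute size also reflects the length of each gene.

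**Figure D4:**
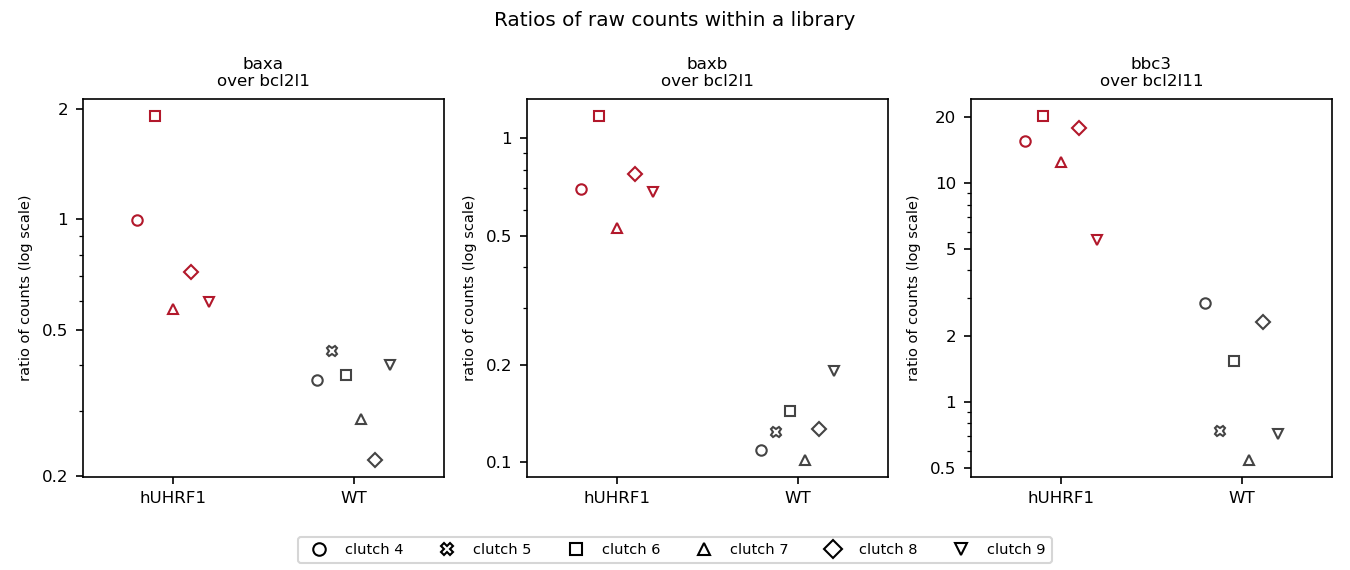
Ratio of the raw counts of 2 cell death genes in each library, on log axes, with the hUHRF1 pools in red at the left of each panel and the WT pools in grey at the right; symbols mark clutches. In each of the 3 panels all hUHRF1 pools lie above all WT pools, and the hUHRF1 pool of clutch 6 is the highest. The ratios of baxb to bcl2l1 and of bbc3 to bcl2l11 were chosen after the values of their genes were seen.

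Other genes of cell death were taken from a wider list of upstream adaptors, ligands, less central family members and mitochondrial channels. Of its 53 tested genes, 16 (30.2%) were called, 7 higher (13.2%) and 9 lower (17%), again close to the shares over all genes. The adaptor gene tradd, which couples TNF receptors to their signals, had an L2FC of 1.16 (SE 0.21, adjusted p = 0.00094), at 13 to 22.3 CPM in hUHRF1 pools and 4.97 to 9.99 CPM in WT pools. The receptor gene hdr, which encodes a death receptor of zebrafish blood cells, was at 30.0 to 39.5 CPM in hUHRF1 pools and 6.54 to 28.8 CPM in WT pools, with an L2FC of 1.30 (adjusted p = 0.0097). The inhibitor gene birc7 had an L2FC of 3.45 (adjusted p = 0.0011) on very few reads, with 131 counts over the hUHRF1 pools and 10 over the WT pools. In RefSeq birc7 overlaps ddx23, so its reads may be shared. It had enough reads to be tested in only 5 of the 11 fits with 1 library left out. Also higher were pawr, at 0.92 (adjusted p = 0.0030), and bag1, a co-chaperone gene, at 0.88 (adjusted p = 0.0036). Called lower were the channel gene vdac3, at -1.02 (adjusted p = 0.0014), and the mitophagy receptor genes bnip3, at -1.35 (adjusted p = 0.0021), and BNIP3L ENSDARG00000025468, at -1.12 (adjusted p = 0.0040), while the other ID of that name, BNIP3L ENSDARG00000028067, was at 0.20 (adjusted p = 0.48).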

How the data were processed

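RNA-seq was measured in 11 pools of larval livers, 5 hUHRF1 and 6 WT. The authors used HISAT2 for alignment to GRCz10 and HTSeq for counting, and deposited raw counts per gene, whose use of strand is not given in the sources used here. Names of IDs came from a table of Ensembl names (26269 of 32105 named). Of the 40 listed names, 35 matched in any case and 5 without their last letter. Overlapping genes were taken from RefSeq. Members and lists were chosen with earlier results of these data known. One gene of the list is not reported here and is left out of all counts of members, although counts over all genes include it.

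The analysis used edgeR 4.0.16 in R 4.3.3, on top of limma 3.58.1, with DESeq2 1.42.0 as an alternative. Genes were kept by filterByExpr (minimum count 10, minimum total 15), which left 15838, libraries were scaled with TMM, and conditions were compared with edgeR's robust quasi-likelihood test with Benjamini-Hochberg adjustment over all tested genes, called at an adjusted p under 0.05. CPM values carry no prior count. Differences within clutches used a pseudocount of 0.5 CPM. The procedure was tested on simulated counts in which 200 genes were changed, up and down in equal number. The simulation held no clutch effect and no shift in RNA composition, so it cannot test the choice of scaling. In the main fit, p-values measure the spread between pools of the same condition, which come from separate clutches. The pairing of sibling pools across conditions is used only in the fit with clutch as a block.

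Every called member and the most abundant member of each role (by CPM, not corrected for length) is given in each hUHRF1 pool. For the WT pools the text gives the range and median of these genes. Of the other cell death genes, the 8 with the smallest adjusted p are named. Clutch numbers, which the labels give, mark siblings, and deviations of pools of the same clutch from their condition means were correlated over genes at 0.2063 to 0.4809. Pools of different clutches were not correlated in this way, so these values do not tell a shared clutch from a shared group of clutches. Alternatives were scaling by library size only or by DESeq2's size factors, the test of DESeq2, no filter, at least 10 counts in every library, clutch as a replicate block, the group of clutches (4 to 6 or 7 to 9, whose titles are worded differently) as a term or alone, and each library left out. The labels describe an incross of carriers and the methods an outcross to WT fish. Sequences were not used here.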

Additional observations from a re-analysis of the deposited data

Results flagged for a closer look

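In 4 of 50 sets of pools examined, 1 pool stood apart from the others of its condition by Dixon's criterion, which chance alone meets in about 1 of 20 sets. The value of tnfrsf1a in the hUHRF1 pool of clutch 7 was 42.8 CPM, with 15.4 to 22.9 CPM in the other hUHRF1 pools, and without that pool tnfrsf1a was called lower. For casp8, the WT pool of clutch 8 was at 12.6 CPM and the other WT pools at 6.25 to 8.61 CPM. For diabloa, the WT pool of clutch 7 was at 3720 CPM and the other WT pools at 614 to 1300 CPM. The zebrafish uhrf1 gene was at 12 CPM in the WT pool of clutch 6 and at 4.41 to 7.01 CPM in the other WT pools.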

How the results depend on the processing

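With library size only, 8826 genes were called in place of 4569, cell death genes called higher numbered 20 in place of 5 and called lower 0 in place of 5, other cell death genes 29 in place of 7 and 1 in place of 9, and the median L2FC of the 37 genes was 0.66 in place of -0.14. That scaling turned the sign of 15 of the 37 genes, among them bcl2l1 (0.01), mcl1a (0.25), diabloa (0.16) and tnfrsf1a (0.27). In clutches 4 to 6 alone, 1839 genes were called, 3 cell death genes were higher, other cell death genes called higher and lower numbered 1 and 2, the median was -0.35, dffa was at -0.22 and CASP6 ENSDARG00000093405 at -0.11. In clutches 7 to 9 alone, 2503 genes were called, 3 cell death genes were lower, and other cell death genes called higher and lower numbered 4 and 3. The filter on low counts also mattered for the median, which was 0.17 without it, when more IDs of very few reads entered. With 1 library left out, all genes called ranged over 3814 to 4433, cell death genes called higher over 5 to 6 and lower over 5 to 6, other cell death genes over 5 to 8 and 5 to 9 (5 lower without the WT pool of clutch 5), and the median over -0.16 to -0.04. All 10 called cell death genes were called in each of these 11 fits. With clutch as a replicate block, 5583 genes and 15 cell death genes were called, 8 of these higher, and the causes of these shifts were not tested. Pools of 1 group of clutches are few, and depth limits fas, birc7 and the untested genes.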

Other observations

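Among the other cell death genes, the CIDE genes share a domain with the DNA fragmentation factors but their products coat lipid droplets in liver and fat. They were named after their values were seen. The gene cidec was at 7.23, 0.790, 28.1, 5.84 and 6.24 CPM in the hUHRF1 pools, against 10.8 to 102 CPM in the WT pools, with an L2FC of -2.54 (SE 0.77, adjusted p = 0.029, edgeR). Its hUHRF1 pool of clutch 7 fell within the WT range, and cidec was lower in each of the 5 clutches with both conditions. It was called in 5 of 11 fits with 1 library left out (L2FC -3.50 to -2.23, largest adjusted p = 0.066), and in neither group of clutches alone (adjusted p = 0.12 in clutches 4 to 6 and 0.067 in clutches 7 to 9). With clutch as a block in edgeR, the L2FC of cidec was -2.90 (adjusted p = 2.9e-05), and with library size only it was -1.77 (adjusted p = 0.042). The related cideb was at 18.6, 11.1, 20.7, 38.5 and 28.0 CPM in the hUHRF1 pools, against 31.8 to 58.4 CPM in the WT pools, with an L2FC of -0.94 (SE 0.27, adjusted p = 0.019, edgeR), and also lower in each of the 5 clutches. Unlike cidec, cideb was not called with library size only, at -0.20 (adjusted p = 0.45, edgeR). The third CIDE gene, cidea, was not called, with an L2FC of 0.21 (SE 0.48, adjusted p = 0.78) and a mean of 1.35 CPM in hUHRF1 pools and 1.17 CPM in WT pools.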
